A study of Homo sapiens with 6 samples.

Results

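The genes described here are the nuclear-encoded subunits of respiratory complexes II to V in HCT116 cells, a human colon carcinoma line, given curcumin or left untreated. They were taken from the deposited gene table by symbol: SDHA to SDHD for complex II, symbols beginning UQCR and CYC1 for complex III, CYCS for cytochrome c, symbols beginning COX4 to COX8 for complex IV and symbols beginning ATP5 for complex V. Pseudogenes and antisense genes were left out. This gave 52 genes of the 35106 in the table: 4 of complex II, 10 of complex III, CYCS, 17 of complex IV and 20 of complex V. All 52 are annotated as protein coding.

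RNA sequencing libraries were compared from 3 samples of HCT116 cells given curcumin, the yellow polyphenol of turmeric, at 30 µM for 24 h and 3 samples of untreated HCT116 cells. The labels write the dose unit in a form that reads as micrometres, taken here as µM. Both groups carry the genotype label WT and grew in the same serum-containing medium, and the untreated samples are labelled none, with no solvent control named. The sources do not state whether the samples of a group came from separate cultures, and each p-value therefore reflects the sample-to-sample spread alone, possibly a technical one. HCT116 is a single tumour-derived line, so the results hold for that line at this dose and time.

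The respiratory chain passes electrons from nutrients to oxygen across the inner mitochondrial membrane. Complex II (succinate dehydrogenase) takes electrons from succinate into the quinone pool, complex III passes them to cytochrome c, and complex IV (cytochrome c oxidase) passes them to oxygen while complexes III and IV build a proton gradient. Complex V (ATP synthase) makes ATP from that gradient. Complex II is encoded wholly in the nucleus, whereas complexes III, IV and V join nuclear subunits to core subunits encoded in mitochondrial DNA.

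Library totals were 16663562 to 17893056 estimated counts in curcumin-treated cells and 18154380 to 20311769 in untreated cells. The make-up of the libraries differed with the treatment: the 100 most abundant genes held 39.9% to 43.3% of counts after curcumin, against 18.9% to 22.7% in untreated cells. The scaling factors that correct for such a difference (TMM, edgeR) were 0.716 to 0.804 after curcumin and 1.30 to 1.34 in untreated cells. Scaling by library size alone moved the median log2 fold change of all genes by -0.80, and changes are therefore to be read against the rest of the transcripts. In bulk RNA, fewer cells of a type and less RNA per cell cannot be told apart. Of 8 epithelial markers, 6 were at 1 CPM or more in every library, with a summed level of 7219 to 8463 CPM after curcumin and 3790 to 4488 CPM in untreated cells, most of it from keratins. KRT8 alone had 4338 to 4919 CPM after curcumin and 1715 to 2080 CPM in untreated cells. The intestinal factor CDX2 went the other way, with 7.70 to 13.1 CPM after curcumin and 24.2 to 26.6 CPM in untreated cells (log2 -1.40, adjusted p = 5.8e-04). The intestinal marker CDH17 had 0, 9 and 26 counts after curcumin and 0 in each untreated library, and VIL1 stayed under 1 CPM in all 6. Summed fibroblast markers were 15.2 to 37.9 CPM after curcumin and 25.6 to 30.3 CPM in untreated cells. Summed leukocyte markers were 11.2 to 29.5 CPM after curcumin and 0.206 to 0.569 CPM in untreated cells, nearly all from CD14, with the leukocyte-defining PTPRC and CD3E near or at 0. Summed endothelial markers were 8.30 to 28.1 CPM after curcumin and 1.36 to 2.20 CPM in untreated cells. After curcumin most of that sum came from PECAM1, with 6.65, 13.0 and 25.0 CPM, against 0, 0.123 and 0.157 CPM in untreated cells (adjusted p = 3.6e-05). In untreated cells PECAM1 was a small part of the sum. The endothelial-defining CDH5 was near 0. The remaining marker, VWF, was the only endothelial marker at 1 CPM or more in every library. The part of these markers in the results was not tested.

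Curcumin-treated cells held more transcript of most subunits of complexes III, IV and V than untreated cells, relative to other transcripts, whereas 1 of the 4 subunits of complex II rose. Of the 52 genes, 45 had enough counts to be tested. After curcumin 36 rose and 2 fell at an adjusted p under 0.05 (edgeR's quasi-likelihood test, Benjamini-Hochberg over all genes tested), beside 27.2% of all 13718 genes tested that rose and 28.9% that fell. The 2 that fell were SDHA of complex II and UQCRFS1 of complex III. The 7 that passed in neither direction were SDHC, SDHD, UQCR10, COX6B2, ATP5MC1, ATP5MC3 and the readthrough gene ATP5MF-PTCD1. The median log2 fold change (curcumin over untreated) of the 45 was 1.41, ranging from -1.15 to 2.48, beside a median of -0.037 over all genes tested. Of the risers, 31 rose at least 2-fold, which 16.4% of all genes did. In 36 subunits all 3 curcumin libraries lay above all 3 untreated libraries, beside 30.9% of all genes, and in 3 they lay below, beside 33.1%.

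**Figure D1:**
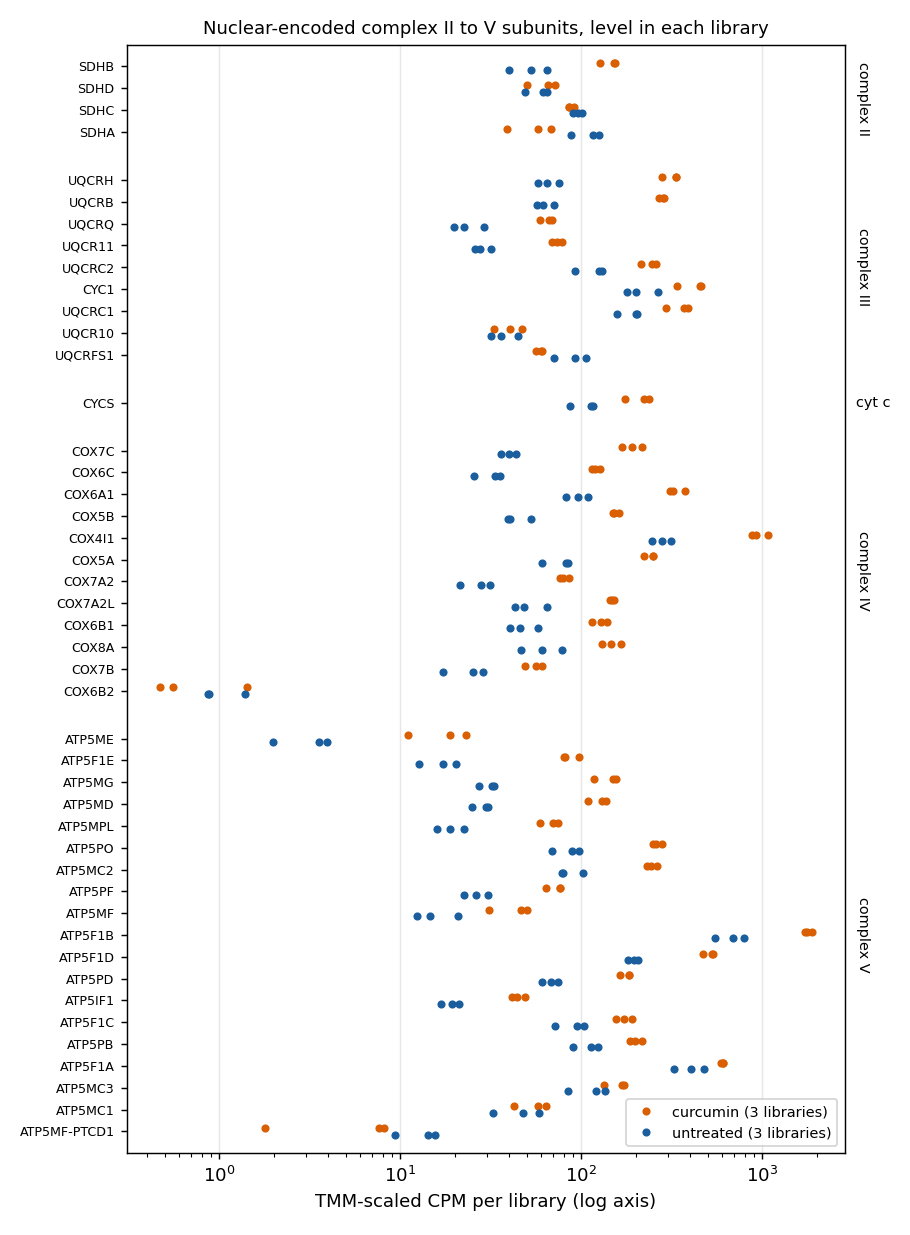
Level of each tested subunit in each library, as TMM-scaled CPM on a log axis, grouped by complex, with curcumin points beside untreated points. The curcumin points lie wholly above the untreated points in 36 of the 45 subunits and wholly below in SDHA, UQCRFS1 and ATP5MF-PTCD1.

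The size of the shift depended on how the libraries were scaled and on transcript length. With scaling by library size alone, 25 subunits rose and 6 fell (median log2 fold change 0.59), where 9.62% of all genes rose and 56.5% fell and the median of all genes was -0.84. When the trend of fold change with transcript length and GC content was removed, 28 rose and 6 fell (median 0.64), where 25.8% of all genes rose and 23.1% fell. These lengths were those of the longest transcripts, and with median lengths 25 subunits rose and 7 fell (median 0.47), where 26.4% of all genes rose and 23.3% fell. Below, values with the length trend removed use the longest transcripts unless median lengths are named. With the 100 most abundant genes kept out of the library sizes, 35 subunits rose and 4 fell (median 1.04), where 18.4% of all genes rose and 40.9% fell. Subunit transcripts are short: the median of their annotated lengths was 749 bases, against 2565 bases over all 13101 protein-coding genes tested. Short transcripts ran higher after curcumin in the whole table. Spearman's rho of log2 fold change with the longest transcript length was -0.36 across the 45 subunits and -0.45 across all protein-coding genes, as a description across genes that share the same 6 libraries. Below 1000 bases the median log2 fold change was 1.45 for 31 subunits and 0.99 for all 1069 genes. At 1000 bases or more it was 0.93 for 14 subunits and -0.14 for all 12016 genes.

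**Figure D2:**
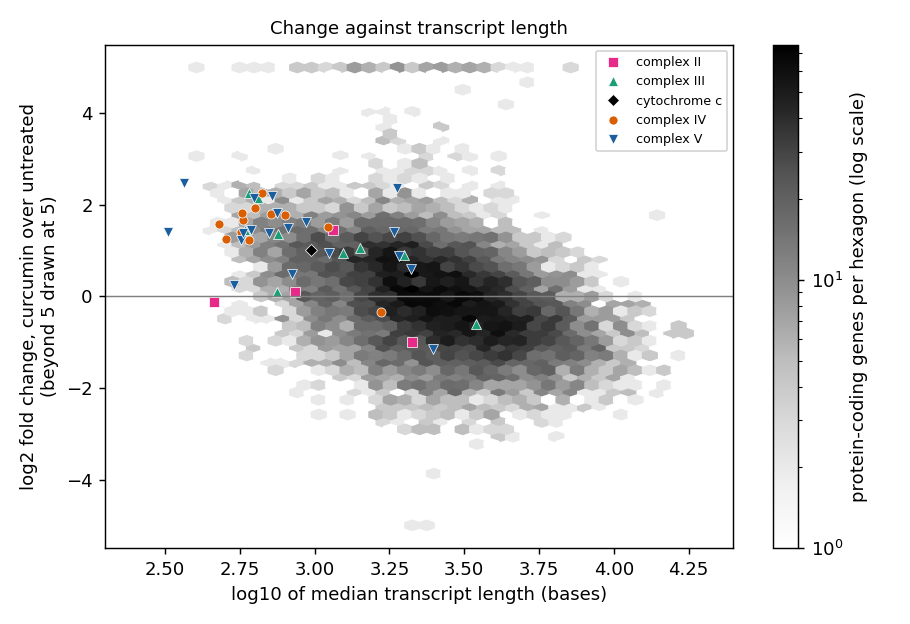
Log2 fold change (curcumin over untreated) against the log10 of median annotated transcript length in bases, for the subunits (symbols, by complex) and for all protein-coding genes tested (grey hexagons, darker where more genes fall, with values beyond 5 drawn at 5). Subunits below 1000 bases have a median log2 fold change of 1.45 and longer ones 0.93, against 0.99 and -0.14 for all genes of the same length ranges.

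Promoter sequences of 39 of the 52 genes were matched in a RefSeq table (build GRCh38.p14) that gives 250 bases before to 50 after each gene's annotated start. A pair of motifs known from nuclear respiratory genes were searched on both strands: a core of sites for nuclear respiratory factor 1 (NRF1), and ACTTCCG, an ETS-type site of the kind bound by GABP. The NRF1 motif allowed any base at a position near its middle, so a match need not be a palindrome. The NRF1 motif was present in 11 of 39 subunit promoters (28.2%), against 6.28% of all 27305 promoters of the same length. It was in 2 of 3 promoters of complex II, 4 of 7 of complex III, 1 of 14 of complex IV and 4 of 14 of complex V. The ETS motif was present in 9 of 39 (23.1%), against 7.23% of all promoters. At least 1 of these motifs was in 18 of 39 subunit promoters, against 12.6% of all, and no occurrence of one overlapped the other. The promoters of both genes that fell held the NRF1 motif, as did 6 of 30 promoters of genes that rose. The ETS motif was in 0 of the 2 and 8 of the 30. A match here is a run of letters, and binding was not measured. The 6 promoters printed here are those of the subunits of opposite direction in complex II (SDHA, which fell, and SDHB, which rose) and in complex III (UQCRFS1, which fell, and UQCR11, which rose), followed by a complex IV and a complex V subunit that rose (COX5B and ATP5F1E). Capitals mark the motifs on either strand and the rest is in lower case, 5′ to 3′ on the strand of the gene.
SDHA, chr5:218070-218369, plus strand: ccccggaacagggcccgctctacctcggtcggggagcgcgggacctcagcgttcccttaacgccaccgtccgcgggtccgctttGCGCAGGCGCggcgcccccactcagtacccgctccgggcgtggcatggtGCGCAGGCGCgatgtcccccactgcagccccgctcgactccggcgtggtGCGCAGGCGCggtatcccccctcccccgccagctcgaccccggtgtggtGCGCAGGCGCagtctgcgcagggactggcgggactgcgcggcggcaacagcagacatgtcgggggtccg
SDHB, chr1:17053983-17054282, minus strand: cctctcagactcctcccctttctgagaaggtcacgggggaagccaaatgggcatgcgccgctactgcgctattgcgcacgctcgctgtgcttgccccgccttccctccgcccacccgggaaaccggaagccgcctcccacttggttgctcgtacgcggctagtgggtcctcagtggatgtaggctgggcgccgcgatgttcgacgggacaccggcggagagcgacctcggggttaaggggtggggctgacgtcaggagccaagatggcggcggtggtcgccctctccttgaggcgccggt
UQCRFS1, chr19:29213102-29213401, minus strand: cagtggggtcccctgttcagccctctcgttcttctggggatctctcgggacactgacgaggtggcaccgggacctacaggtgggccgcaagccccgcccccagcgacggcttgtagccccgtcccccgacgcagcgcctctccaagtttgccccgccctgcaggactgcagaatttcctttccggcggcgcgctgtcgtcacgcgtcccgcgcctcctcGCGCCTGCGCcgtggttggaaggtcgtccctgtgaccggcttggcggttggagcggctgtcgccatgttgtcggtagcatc
UQCR11, chr19:1605413-1605712, minus strand: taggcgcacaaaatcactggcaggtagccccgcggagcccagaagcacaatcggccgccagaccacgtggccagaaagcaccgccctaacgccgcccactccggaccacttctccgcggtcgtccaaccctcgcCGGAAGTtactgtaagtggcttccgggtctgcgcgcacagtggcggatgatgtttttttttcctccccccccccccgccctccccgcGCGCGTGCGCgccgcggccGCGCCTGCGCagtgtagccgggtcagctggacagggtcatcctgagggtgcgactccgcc
COX5B, chr2:97645812-97646111, plus strand: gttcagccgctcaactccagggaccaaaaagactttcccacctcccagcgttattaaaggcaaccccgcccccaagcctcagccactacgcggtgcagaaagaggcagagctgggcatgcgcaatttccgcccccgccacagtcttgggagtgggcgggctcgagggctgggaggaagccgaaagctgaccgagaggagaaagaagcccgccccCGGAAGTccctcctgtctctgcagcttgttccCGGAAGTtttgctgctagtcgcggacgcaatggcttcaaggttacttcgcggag
ATP5F1E, chr20:59032286-59032585, minus strand: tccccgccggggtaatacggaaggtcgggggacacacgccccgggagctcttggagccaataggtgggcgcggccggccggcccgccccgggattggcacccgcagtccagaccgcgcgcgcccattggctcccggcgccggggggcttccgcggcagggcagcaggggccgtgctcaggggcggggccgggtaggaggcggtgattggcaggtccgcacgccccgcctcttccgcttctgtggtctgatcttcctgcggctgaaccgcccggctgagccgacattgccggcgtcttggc
SDHA holds 4 copies of the NRF1 motif, UQCRFS1 has 1, and UQCR11 has 2 with 1 ETS motif. COX5B holds 2 ETS motifs. Neither motif is in the windows of SDHB and ATP5F1E, although both genes rose.

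The subunits of complex II moved apart. Its 4 genes encode the flavoprotein that oxidises succinate (SDHA), the iron-sulfur protein that passes the electrons on (SDHB) and the membrane anchors that bind quinone (SDHC and SDHD). Of these 1 rose, 1 fell and 2 did not pass the test, and the median log2 fold change was -0.02.

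SDHA had 67.5, 57.3 and 38.9 CPM after curcumin and 115, 125 and 87.0 CPM in untreated cells. The groups did not overlap, with curcumin replicate 3 lowest of all. SDHA fell by 0.998 ± 0.22 (SE) on the log2 scale (95% interval -1.48 to -0.51, adjusted p = 0.0031), and it stayed called lower in all 14 alternatives. SDHB had 126, 153 and 152 CPM after curcumin and 52.9, 64.5 and 39.6 CPM in untreated cells. Every curcumin value was above every untreated value. SDHB rose 2.74-fold (log2 1.46 ± 0.19, interval 1.03 to 1.88, adjusted p = 1.5e-04), a call also kept in all 14 alternatives.

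The anchor SDHC had 90.5, 85.1 and 85.0 CPM after curcumin and 100.2, 95.2 and 89.7 CPM in untreated cells, and those ranges overlapped. Its log2 fold change was -0.13 ± 0.13 (interval -0.42 to 0.16, adjusted p = 0.42). SDHC depended on the length used: it was called higher (0.78) when the length correction used the longest annotated transcript (13566 bases). With the median annotated length SDHC was called lower (-1.56). It depended on the scaling too, being called lower with library size alone (-0.93) and with the 100 most abundant genes kept out of the library sizes (-0.49). The other anchor, SDHD, had 71.6, 65.2 and 49.8 CPM after curcumin and 64.6, 61.5 and 48.7 CPM in untreated cells, which also overlapped. Its log2 fold change was 0.09 ± 0.18 (interval -0.31 to 0.50, adjusted p = 0.68) and turned to -0.70 under library size alone and -0.44 with the length trend removed, called lower in both. Within a library the ratio of SDHB to SDHA counts was 1.87, 2.66 and 3.90 after curcumin and 0.458, 0.518 and 0.454 in untreated cells. This ratio does not depend on the scaling of the library, and its groups did not overlap.

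Most of complex III rose, with the Rieske protein as the exception that fell. Of its 9 tested subunits 7 rose and 1 fell, and the median log2 fold change was 1.05 (0.25 with library size alone, 0.43 with the length trend removed). Its nuclear core comprises the Rieske iron-sulfur protein (UQCRFS1), cytochrome c1 (CYC1) and the 2 large core proteins UQCRC1 and UQCRC2. UQCRFS1 had 60.6, 60.1 and 55.8 CPM after curcumin and 91.7, 107 and 70.2 CPM in untreated cells. Every curcumin library was below every untreated one. UQCRFS1 fell by 0.61 ± 0.17 on the log2 scale (interval -0.99 to -0.22, adjusted p = 0.012), but at -0.30 it was no longer called when the length trend was removed with median lengths (adjusted p = 0.19).

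CYC1, which hands electrons to cytochrome c, had 452, 455 and 337 CPM after curcumin and 199, 265 and 179 CPM in untreated cells, without overlap. It rose 1.94-fold (log2 0.95 ± 0.19, interval 0.54 to 1.37, adjusted p = 0.0017). UQCRC1 rose by a log2 of 0.91 ± 0.16 (adjusted p = 0.001) and UQCRC2 by 1.05 ± 0.17 (adjusted p = 4.9e-04). Under library size alone these 3 were at 0.15, 0.11 and 0.25 for CYC1, UQCRC1 and UQCRC2, none of them called. CYC1 (0.13) and UQCRC1 (0.43) were not called with the length trend removed by longest transcripts either. By median lengths UQCRC1 was called (0.58) and CYC1 was not (0.33).

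The 5 small accessory subunits of complex III had a median log2 fold change of 1.44, beside 0.93 for the 4 core subunits, a difference that was not tested. UQCRH, the acidic hinge protein beside cytochrome c1, had 279, 333 and 335 CPM after curcumin and 75.5, 64.3 and 57.8 CPM in untreated cells. The lowest curcumin value was well above the highest untreated value. UQCRH rose 4.79-fold (log2 2.26 ± 0.16, interval 1.91 to 2.61, adjusted p = 1.2e-05). UQCRB, which takes part in quinone binding, had 268, 282 and 288 CPM after curcumin and 70.8, 61.1 and 56.9 CPM in untreated cells. Here too the groups were far apart, and UQCRB rose 4.44-fold (log2 2.15 ± 0.14, interval 1.83 to 2.47, adjusted p = 1.1e-05). UQCRQ (1.44 ± 0.18, adjusted p = 1.2e-04) and UQCR11 (1.37 ± 0.15, adjusted p = 6.0e-05) rose as well, but UQCRQ was not called with the length trend removed by longest (0.27) or median lengths (0.22). UQCR10 did not pass: it had 46.9, 40.4 and 33.0 CPM after curcumin and 35.9, 44.4 and 31.6 CPM in untreated cells, which overlapped. Its log2 fold change was 0.10 ± 0.19 (interval -0.32 to 0.53, adjusted p = 0.66), and it was called lower at -0.69 with library size alone and -0.98 with the length trend removed.

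UQCRHL, a near-identical copy of UQCRH, had 0, 0 and 1 counts after curcumin and 7, 1 and 3 in untreated cells and was not tested. How reads were shared between the copies is not known, so the values of both are uncertain. Within a library the ratio of UQCRB to UQCRFS1 counts was 4.42, 4.70 and 5.15 after curcumin and 0.772, 0.573 and 0.811 in untreated cells, again without overlap. CYCS, the somatic cytochrome c that also activates apoptotic caspases when released, had 222, 236 and 174 CPM after curcumin and 113, 115 and 86.2 CPM in untreated cells. The groups did not overlap. CYCS rose 2.01-fold (log2 1.01 ± 0.17, interval 0.63 to 1.39, adjusted p = 7.2e-04), and its log2 fold change was 0.21 and not called with library size alone.

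**Figure D3:**
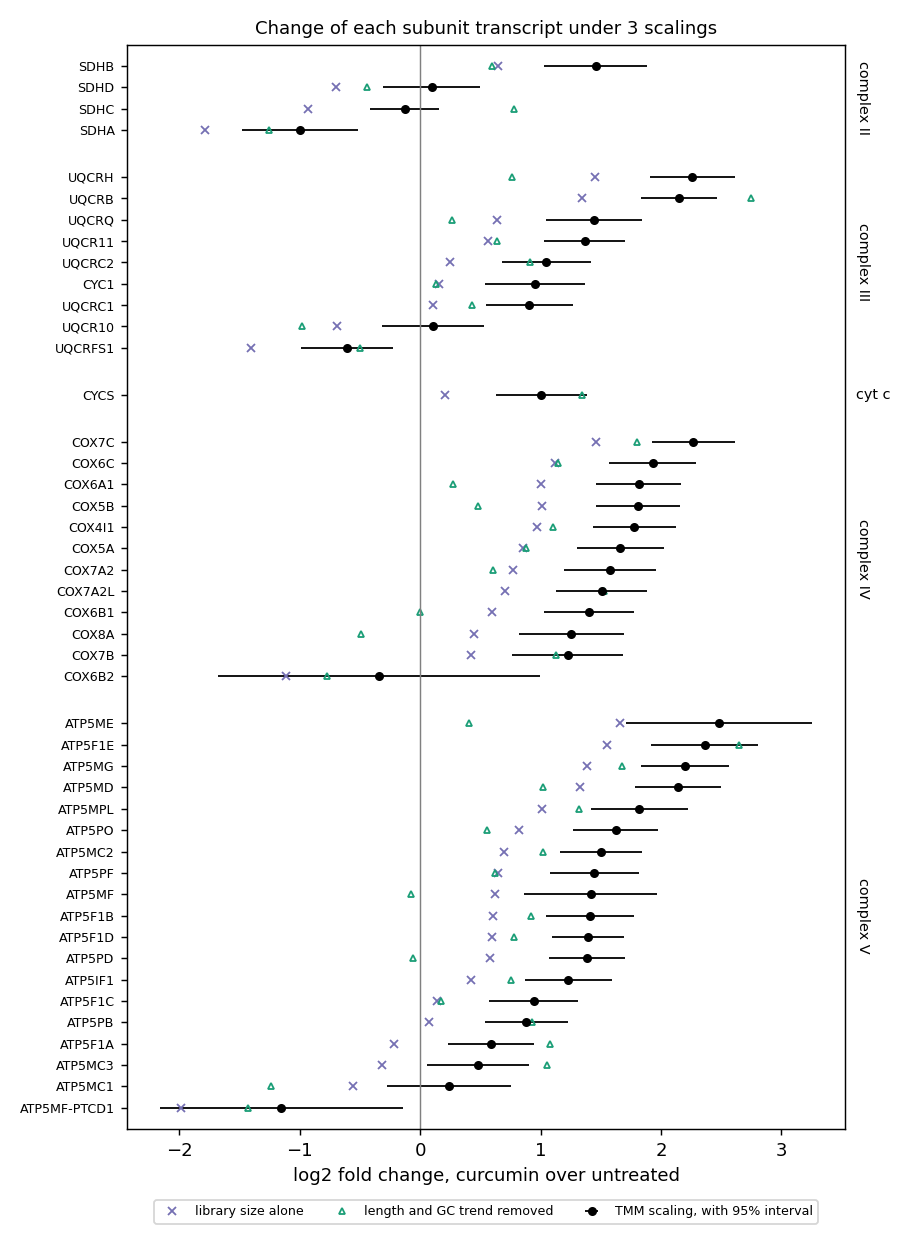
Log2 fold change (curcumin over untreated) of each tested subunit with its 95% interval, ordered within complexes, with the values under library size alone and with the length trend removed beside it. Complexes III, IV and V lie mostly above 0, with medians of 1.05, 1.62 and 1.41, and complex II has a median of -0.02.

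Complex IV moved in 1 direction. All 11 of its broadly expressed nuclear subunits rose, by log2 1.23 to 2.27 with a median of 1.66, and in each every curcumin library was above every untreated library. Of the 12 tested subunits, 9 rose and none fell with library size alone, and 8 rose and none fell with the length trend removed. COX7C, a small membrane subunit, had 168, 216 and 191 CPM after curcumin and 43.8, 39.7 and 36.0 CPM in untreated cells. No library came between the groups' ranges, and COX7C rose 4.82-fold (log2 2.27 ± 0.16, interval 1.92 to 2.61, adjusted p = 1.1e-05). COX6C had 115, 118 and 126 CPM after curcumin and 33.4, 35.3 and 25.5 CPM in untreated cells. The curcumin libraries lay close together and above the untreated ones, and COX6C rose 3.81-fold (log2 1.93 ± 0.16, interval 1.57 to 2.29, adjusted p = 1.7e-05).

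The subunits that have a tissue-restricted partner followed the same direction in their broadly expressed form. COX4I1, the subunit at which ATP regulates the enzyme, had 873, 921 and 1079 CPM after curcumin and 312, 280.0 and 246 CPM in untreated cells, and rose 3.43-fold (log2 1.78 ± 0.16, adjusted p = 1.9e-05). COX6A1 had 307, 322 and 376 CPM after curcumin and 108, 95.7 and 81.9 CPM in untreated cells, and rose 3.52-fold (log2 1.81 ± 0.16, adjusted p = 1.8e-05). COX6B1, which faces the intermembrane space, had 114, 129 and 138 CPM after curcumin and 45.9, 57.4 and 40.5 CPM in untreated cells, and rose 2.65-fold (log2 1.40 ± 0.17, adjusted p = 9.1e-05). None of these 3 groups of values overlapped, although COX6A1 (0.28) and COX6B1 (-0.0047) were not called with the length trend removed by longest transcripts. By median lengths COX6A1 was called (0.53) and COX6B1 was not (0.07). COX7A2 had 78.9, 84.8 and 75.9 CPM after curcumin and 31.1, 27.8 and 21.4 CPM in untreated cells (log2 1.58 ± 0.17, adjusted p = 5.6e-05). COX7A2L, which links complexes III and IV into supercomplexes, had 143, 147 and 151 CPM after curcumin and 64.2, 43.1 and 48.1 CPM in untreated cells (log2 1.51 ± 0.17, adjusted p = 6.7e-05). Both rose without overlap, but COX7A2 was not called with median lengths in the length correction (0.23).

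COX7B had 56.4, 60.6 and 48.9 CPM after curcumin and 25.1, 28.7 and 17.1 CPM in untreated cells (log2 1.23 ± 0.21, adjusted p = 6.9e-04). COX8A had 145, 166 and 129.8 CPM after curcumin and 60.6, 77.6 and 46.6 CPM in untreated cells (log2 1.25 ± 0.20, adjusted p = 4.4e-04). Both rose without overlap. With library size alone neither COX7B (0.42) nor COX8A (0.45) was called. COX7B was not called with median lengths either (0.25), and COX8A came to -0.49 with the length trend removed by longest lengths and -0.29 by median lengths. The core-contacting subunits COX5A (log2 1.66 ± 0.16, adjusted p = 3.2e-05) and COX5B (log2 1.81 ± 0.16, adjusted p = 1.8e-05) rose too.

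The partner isoforms, known from muscle, lung, testis and other restricted sites, stayed at or near 0 in both groups. COX6A2 and COX7B2 had 0 counts in all 6 libraries, where 3 counts correspond to 0.224 to 0.238 CPM after curcumin and 0.114 to 0.123 CPM in untreated cells. COX4I2 had 0, 2 and 0 counts after curcumin and 1, 0 and 0 in untreated cells. COX7A1 had 0, 1 and 0 counts after curcumin and none in untreated cells, and COX8C had 0, 2 and 0 counts after curcumin and 2, 0 and 0 in untreated cells. These values allow no comparison of the groups. COX6B2, a testis isoform, was the one low isoform that was tested: it had 1.42, 0.556 and 0.469 CPM after curcumin and 0.872, 0.864 and 1.38 CPM in untreated cells. Those ranges overlapped, and its log2 fold change of -0.34 ± 0.60 (interval -1.68 to 0.998, adjusted p = 0.65) leaves a wide range. No exchange of one isoform for another was detectable in complex IV at this depth.

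Complex V rose in 16 of 19 tested subunits and fell in none, with a median log2 fold change of 1.41 (0.61 with library size alone, 0.78 with the length trend removed). All 5 subunits of the catalytic F1 head rose, with a median of 1.39. All 4 of the peripheral stalk that holds the head still rose, with a median of 1.42. All 5 small membrane accessory subunits rose, with a median of 2.14, and 1 of 3 genes of the rotating c ring rose, with a median of 0.48. With the length trend removed by longest transcripts these medians were 0.92 for F1 and 0.59 for the stalk. They were 1.02 for the accessory subunits and 1.02 for the c ring, so the lower value of the c ring was not seen there. It was seen with median lengths, where ATP5MC1, ATP5MC2 and ATP5MC3 came to -1.14, 0.55 and -0.11, beside a median of 0.50 over complex V.

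In the F1 head the log2 fold change ran from ATP5F1A, the alpha subunit, to ATP5F1E, the epsilon subunit of the central stalk. ATP5F1A had 609, 606 and 593 CPM after curcumin and 401, 478 and 323 CPM in untreated cells. It rose 1.504-fold without overlap (log2 0.59 ± 0.16, interval 0.23 to 0.95, adjusted p = 0.011), but came to -0.22, not called, with library size alone and to 1.08, called, with the length trend removed. ATP5F1B, the catalytic beta subunit, had 1772, 1881 and 1728 CPM after curcumin and 689, 787 and 547 CPM in untreated cells. No untreated value came near the curcumin values, and it rose 2.66-fold (log2 1.41 ± 0.17, adjusted p = 8.4e-05). ATP5F1E had 80.3, 80.9 and 96.9 CPM after curcumin and 17.3, 20.3 and 12.6 CPM in untreated cells. The groups were far apart, and ATP5F1E rose 5.14-fold (log2 2.36 ± 0.20, interval 1.92 to 2.81, adjusted p = 1.7e-05), with 2.65 when the length trend was removed. The gamma subunit gene ATP5F1C (log2 0.94 ± 0.17, adjusted p = 9.5e-04) and the delta subunit gene ATP5F1D (log2 1.39 ± 0.14, adjusted p = 3.1e-05) lay between. ATP5F1C was not called with library size alone (0.14) or with the length trend removed by longest transcripts (0.17, the lowest of the 5 there). It was called by median lengths (0.50).

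Within a library, the ratio of beta to alpha counts (ATP5F1B over ATP5F1A) was 2.91, 3.10 and 2.92 after curcumin and 1.72, 1.65 and 1.69 in untreated cells. The ratio of ATP5F1E to ATP5F1A was 0.132, 0.133 and 0.164 after curcumin and 0.0430, 0.0426 and 0.0391 in untreated cells. Both ratios were tight within each group and did not overlap, but a trend with transcript length is not cancelled in them. With that trend removed by longest transcripts ATP5F1B came to 0.92 and ATP5F1A to 1.08. By median lengths ATP5F1B came to 1.15 and ATP5F1A to 0.47. These pairs, like those of complexes II and III above, were picked after their values were seen and are given as a description.

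**Figure D4:**
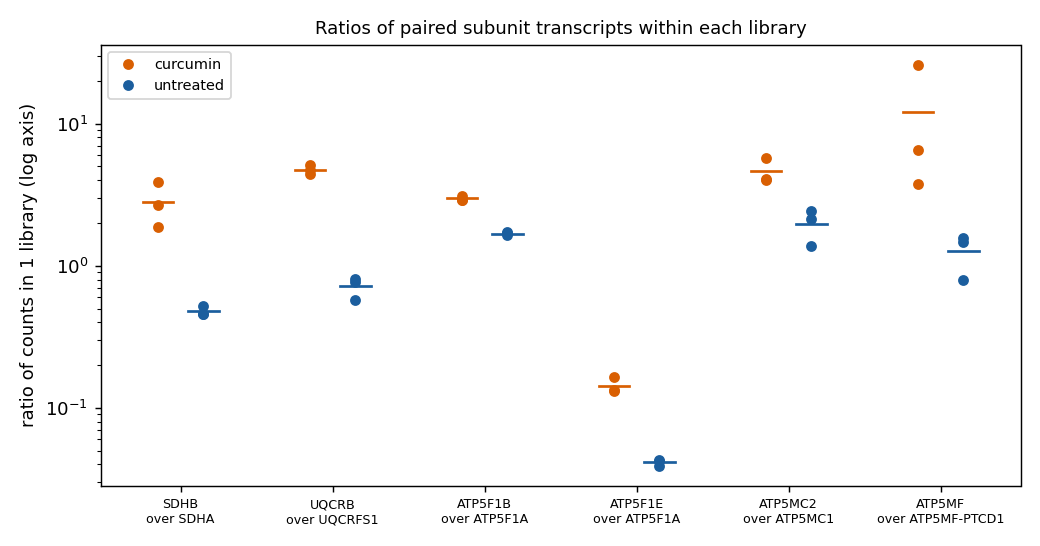
Ratio of the counts of paired subunits within each library, on a log axis, with curcumin libraries beside untreated libraries and lines at the means. The SDHB to SDHA ratio is 1.87 to 3.90 after curcumin and 0.454 to 0.518 in untreated cells, and none of the 6 pairs overlaps between the groups.

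The c ring is built from a single mature protein that 3 genes encode with different import sequences, and these genes moved unequally. ATP5MC2 had 231, 261 and 242 CPM after curcumin and 102, 79.5 and 78.1 CPM in untreated cells, and rose 2.83-fold without overlap (log2 1.499 ± 0.15, interval 1.16 to 1.84, adjusted p = 3.9e-05). ATP5MC1 had 57.3, 63.6 and 42.2 CPM after curcumin and 47.7, 58.0 and 32.3 CPM in untreated cells, which overlapped. Its log2 fold change was 0.24 ± 0.23 (interval -0.28 to 0.76, adjusted p = 0.40), and -0.56 with library size alone, and it was called lower with the length trend removed (-1.24). ATP5MC3 had 168, 172 and 134 CPM after curcumin and 121, 135 and 84.1 CPM in untreated cells, which also overlapped, curcumin replicate 3 lying just below untreated replicate 2. Its log2 fold change was 0.48 ± 0.19 (interval 0.05 to 0.91, adjusted p = 0.054), but removing the length trend made it called higher (1.05, adjusted p = 0.0016). ATP5MC2 made up 50.7%, 52.5% and 57.9% of the counts of the 3 genes after curcumin and 37.7%, 29.2% and 40.2% in untreated cells. ATP5MC3 made up 36.8%, 34.7% and 32.0% after curcumin and 44.7%, 49.5% and 43.2% in untreated cells, and ATP5MC1 12.5%, 12.8% and 10.1% after curcumin and 17.6%, 21.3% and 16.6% in untreated cells. None of these shares overlapped between the groups, and the scaling between libraries does not enter them, but a trend with transcript length can. With that trend removed by longest transcripts ATP5MC2 (1.02) rose no more than ATP5MC3 (1.05). By median lengths ATP5MC2 came to 0.55 and ATP5MC3 to -0.11.

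The small membrane accessory subunits, which sit around the proton channel, all rose. ATP5ME had 10.99, 18.9 and 23.0 CPM after curcumin and 3.56, 3.91 and 1.97 CPM in untreated cells. The groups did not overlap, although replicates were spread widely, and ATP5ME rose 5.59-fold (log2 2.48 ± 0.35, interval 1.71 to 3.26, adjusted p = 2.3e-04), and it was not called with the length trend removed (0.41, adjusted p = 0.36). ATP5MG had 117, 155 and 149.7 CPM after curcumin and 32.0, 32.9 and 27.1 CPM in untreated cells, and rose 4.59-fold (log2 2.20 ± 0.17, adjusted p = 1.4e-05). ATP5MD, also known as DAPIT, had 109, 136 and 130.5 CPM after curcumin and 29.7, 30.6 and 24.9 CPM in untreated cells, and rose 4.41-fold (log2 2.14 ± 0.16, adjusted p = 1.4e-05). In ATP5MG and ATP5MD the curcumin libraries were all far above the untreated ones. ATP5MPL rose 3.53-fold (log2 1.82 ± 0.18, adjusted p = 3.5e-05).

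ATP5MF, the fifth of these, had 46.4, 49.9975 and 30.7 CPM after curcumin and 14.5, 20.8 and 12.3 CPM in untreated cells, and rose 2.67-fold without overlap (log2 1.42 ± 0.25, interval 0.87 to 1.97, adjusted p = 8.6e-04). It was not called with library size alone (0.62). With the length trend removed by longest transcripts ATP5MF came to -0.074, not called. By median lengths it was called lower (-0.82, adjusted p = 0.029), opposite to its rise on the TMM scale. Its reads cannot be told apart with certainty from those of the readthrough gene ATP5MF-PTCD1, which shares its exons on chromosome 7. The readthrough gene had 1.79, 7.62 and 8.13 CPM after curcumin and 9.33, 14.2 and 15.5 CPM in untreated cells. All curcumin values were below all untreated values, with a log2 fold change of -1.15 ± 0.45 (interval -2.16 to -0.15) that did not pass (adjusted p = 0.051). It was called lower with library size alone (adjusted p = 0.0015), with the length trend removed by longest (0.024) or median lengths (0.034), with the 100 most abundant genes kept out of the library sizes (0.011) and by DESeq2 (0.029). The readthrough gene took 3.70%, 13.2% and 21.0% of the counts of both after curcumin and 39.1%, 40.6% and 55.7% in untreated cells, so the division of reads between them differed with the treatment.

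Of the peripheral stalk, ATP5PO, the oligomycin sensitivity protein that joins the stalk to the head, rose by log2 1.62 ± 0.16 (adjusted p = 3.3e-05). ATP5PF rose by 1.45 ± 0.17 (adjusted p = 7.7e-05), ATP5PD by 1.39 ± 0.14 (adjusted p = 3.8e-05) and ATP5PB by 0.88 ± 0.16 (adjusted p = 9.0e-04). ATP5PD came to -0.060 with the length trend removed, ATP5PB was not called with library size alone (0.08), and ATP5PF was not called with median lengths (0.26). ATP5IF1, the inhibitor that stops the enzyme from running backwards and consuming ATP, had 43.9, 48.5 and 41.6 CPM after curcumin and 19.3, 21.0 and 16.8 CPM in untreated cells. It rose 2.35-fold without overlap (log2 1.23 ± 0.16, interval 0.87 to 1.59, adjusted p = 1.6e-04), so the inhibitor's transcript was higher alongside those of the enzyme, but it was not called with library size alone (0.43) and came to -0.037 with median lengths in the length correction. ATP5MGL, a copy of ATP5MG, had 0 counts in every library.

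Summed over their subunits, the complexes took different shares of the library. Complex IV held 0.191%, 0.193% and 0.194% of all counts after curcumin and 0.112%, 0.109% and 0.0882% in untreated cells, 1.87 times as much. Complex V held 0.379%, 0.377% and 0.327% after curcumin and 0.275%, 0.309% and 0.224% in untreated cells, 1.34 times as much. Complex II held 0.0286%, 0.0270% and 0.0233% after curcumin and 0.0432%, 0.0463% and 0.0351% in untreated cells, 0.633 times as much. In each of these 3 complexes the groups did not overlap. Complex III held 0.151%, 0.146% and 0.120% after curcumin and 0.111%, 0.124% and 0.0914% in untreated cells, where curcumin replicate 3 lay below untreated replicate 2. These shares are not corrected for the difference in library make-up. On the TMM scale, which is, the sums of complex II overlapped and were 1.10 times as high after curcumin, at 356, 360 and 326 CPM after curcumin and 333, 346 and 265 CPM in untreated cells. All 52 genes together held 0.735% ± 0.0499 of counts after curcumin and 0.536% ± 0.0786 in untreated cells (SD, n = 3 each). Counts of the 93 family pseudogenes left out were 27 to 72 per curcumin library and 23 to 36 per untreated library, at most 0.0593% of pseudogene and subunit counts together.

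The assembly factors, which insert cofactors and join the subunits but are not part of the finished enzymes, had about as many risers as fallers. Of 36 tested, 11 rose and 11 fell, close to the 27.2% and 28.9% of all genes tested, and their median log2 fold change was 0.22. Scaled by library size alone, 1 of them rose while 17 fell. The number that fell was 6 without curcumin replicate 2 and 7 without untreated replicate 2. Complex IV's factors had 5 risers and 8 that fell of 23, next to 11 risers of 12 tested subunits. Complex III's had 4 and 1 of 6, complex II's 1 and 1 of 4, and complex V's 1 and 1 of 3. SCO1, which delivers copper to cytochrome c oxidase, had 11.9, 7.94 and 10.8 CPM after curcumin and 31.4, 32.9 and 32.0 CPM in untreated cells, without overlap, and fell by 1.65 ± 0.19 on the log2 scale (adjusted p = 8.5e-05). COX17, the copper chaperone that hands copper to SCO1, had 19.3, 25.6 and 22.0 CPM after curcumin and 4.78, 8.60 and 4.01 CPM in untreated cells, without overlap, and rose by log2 1.94 ± 0.29 (adjusted p = 3.5e-04). COX17 was not called with the length trend removed (0.66, adjusted p = 0.069).

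COA7 (log2 -1.59 ± 0.20, adjusted p = 1.1e-04), a haem-binding complex IV factor, and COA3 (log2 -1.43 ± 0.25, adjusted p = 8.7e-04), which acts early on COX1, fell as well, and COA6 (log2 1.23 ± 0.24, adjusted p = 0.0016), another copper-pathway factor, rose. COA6 was not called with library size alone (0.41) or with the length trend removed (0.34). In complex III, BCS1L, which places the Rieske protein UQCRFS1 into the complex, had 29.4, 28.3 and 27.3 CPM after curcumin and 14.1, 16.4 and 11.5 CPM in untreated cells, without overlap, and rose by log2 1.02 ± 0.18 (adjusted p = 0.0011). LYRM7, which holds UQCRFS1 before that step, had 4.63, 5.08 and 3.28 CPM after curcumin and 14.0, 11.2 and 12.5 CPM in untreated cells, without overlap, and fell by 1.53 ± 0.25 on the log2 scale (adjusted p = 5.8e-04). UQCC1, which helps the cell make cytochrome b, rose too (log2 0.93 ± 0.17, adjusted p = 9.7e-04). With library size alone neither BCS1L (0.21) nor UQCC1 (0.12) was called. In complex II, SDHAF1, which helps load iron-sulfur clusters into SDHB, had 5.23, 3.25 and 4.53 CPM after curcumin and 12.5, 10.4 and 11.6 CPM in untreated cells. Those groups did not overlap, and SDHAF1 fell by 1.40 ± 0.26 on the log2 scale (adjusted p = 0.0011), opposite to SDHB.

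**Figure D5:**
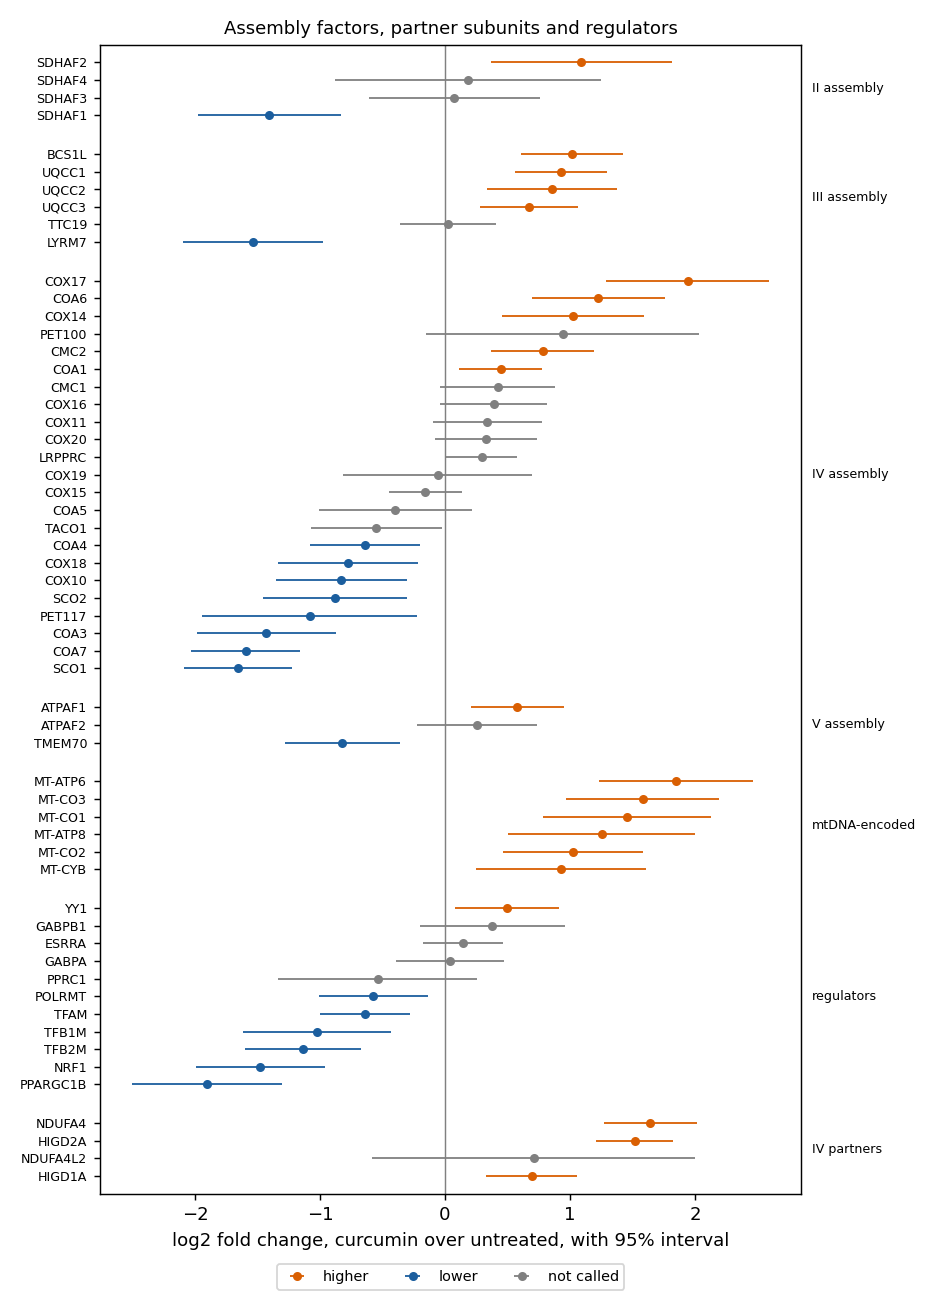
Log2 fold change (curcumin over untreated) with its 95% interval for the assembly factors of each complex, the mitochondrially encoded subunits, the regulators and the complex IV partners, 1 point a gene, coloured by call. Of the assembly factors 11 of 36 are higher and 11 lower, and of the regulators 1 of 11 is higher and 6 lower.

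The subunits that mitochondrial DNA contributes to complexes III to V rose as well, in 6 of 6, with a median log2 fold change of 1.36. They ran from MT-CYB (0.93 ± 0.31, adjusted p = 0.025) to MT-ATP6 (1.85 ± 0.28, adjusted p = 3.3e-04). The rises depended on the processing, with 3 of 6 called higher by library size alone. With the length trend removed by longest transcripts the median was 0.20. There 1 was called higher (MT-CO1, 0.83) and 1 was called lower (MT-ATP8, -1.14), and MT-CO2 came to -0.34, not called. By median lengths 3 were called higher and 1 lower. Untreated replicate 2 was the lowest library for each of the 6. Of the complex IV partners, NDUFA4, which sits in that complex despite its name, rose by log2 1.64 ± 0.17 (adjusted p = 3.9e-05) and HIGD2A by 1.52 ± 0.14 (adjusted p = 2.2e-05). HIGD1A rose by 0.69 ± 0.16 (adjusted p = 0.0047), but came to -0.11 with library size alone. Neither HIGD1A (0.15) nor HIGD2A (0.13) was called with the length trend removed by longest transcripts. By median lengths 2 of the 4 partners were called higher. The fourth, NDUFA4L2, did not pass (0.71 ± 0.58, adjusted p = 0.32).

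Transcripts of the regulators known to drive respiratory gene expression fell more often than they rose. Of 11 tested, 1 rose and 6 fell, where 27.2% of all genes rose and 28.9% fell. Scaled by library size alone, 0 of them rose while 9 fell, and removing the length trend gave 3 higher and 4 lower. NRF1, the factor whose motif was searched above, had 7.55, 9.92 and 6.25 CPM after curcumin and 19.8, 26.1 and 20.2 CPM in untreated cells. Those groups did not overlap, and NRF1 fell by 1.48 ± 0.23 on the log2 scale (adjusted p = 4.4e-04). The coactivator PPARGC1B had 2.99, 4.76 and 4.85 CPM after curcumin and 12.3, 17.03 and 17.9 CPM in untreated cells, without overlap, and fell by 1.91 ± 0.27 (adjusted p = 2.5e-04). Its relative PPARGC1A had 3, 0 and 11 counts after curcumin and none in untreated cells, and was not tested. TFB2M (log2 -1.14 ± 0.21, adjusted p = 0.0011), TFB1M (-1.02 ± 0.27, adjusted p = 0.0081), TFAM (-0.64 ± 0.16, adjusted p = 0.0071) and POLRMT (-0.57 ± 0.20, adjusted p = 0.029), which serve transcription and its ribosomes in mitochondria, fell. Of these, TFAM (-0.07) and POLRMT (-0.25) were not called with the length trend removed. YY1 rose (0.50 ± 0.19, adjusted p = 0.044), but came to -0.32, not called, with library size alone. The ETS-type subunit gene GABPA had a log2 fold change of 0.04 ± 0.20 (interval -0.39 to 0.47, adjusted p = 0.88). It was called lower with library size alone (-0.78, adjusted p = 0.0036) and higher with the length trend removed by longest (0.56, adjusted p = 0.032) or median lengths (0.81, adjusted p = 0.0038).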

How the data were processed

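The authors deposited 1 table of estimated counts (expected counts per gene, many not whole). Which aligner, counter and annotation were used is not given in the sources used here, and libraries were made with a SMARTer mRNA kit, per the labels' protocols. Mouse builds (GRCm38, mm10) stand in the submitters' processing notes, but all 35106 identifiers are human and 35003 were found in GENCODE 29 (GRCh38), so the table was read as human. Counts were rounded (no value moved by more than 0.5). In R 4.3.3, edgeR 4.0.16 filtered genes (filterByExpr, minimum count 10, minimum total 15), scaled libraries by TMM and ran its quasi-likelihood test over all 6 libraries, 3 against 3, with Benjamini-Hochberg adjustment over 13718 genes and a threshold of 0.05. Levels are CPM on the TMM scale, and 3 counts correspond to 0.114 to 0.238 CPM. Such floors cover counting error only, since reads here carry no molecular identifiers. Every pair of replicates differed by more than sampling noise (chi-square per degree of freedom 11.1 to 71.2). On data simulated from these libraries, for curcumin against untreated, 13268 genes were tested. The test called 49 of 95 genes changed 2-fold, 85 of 98 changed 4-fold and 6 of 13075 unchanged ones. Few genes changed in the simulation, and no difference in library make-up was built in. These rates may therefore not hold for the real libraries.

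The members and gene lists were chosen with earlier results of these data known. Per-library values were to be given for, in each complex, up to 2 risers and 2 fallers by size with a mean of at least 5 CPM, the complex II genes, CYC1, CYCS and isoform pairs, and in other lists for up to 3 risers and 3 fallers by adjusted p. Further subunits, all called regulators and GABPA were named after their values were seen. Of the 14 alternatives, 2 were added after seeing the data. SURF1 is not analysed here. Promoters came from RefSeq (GRCh38.p14).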

Additional observations from a re-analysis of the deposited data

How the results depend on the processing

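Of 630 values (45 subunits under 14 alternatives), 560 kept direction and call and 27 turned sign, some of them also losing or gaining a call. Among the rest, which kept their sign, 26 lost the call and 17 gained one. All 14 alternatives kept 18 of the 36 rises and 1 of the 2 falls. No called subunit lost its call when 1 library was left out. The 7 genes with too few counts were not tested under the filter.

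By library size alone, the whole table had 1320 higher and 7747 lower (3732 and 3964 with TMM), the subunits 6 lower (2 with TMM), complex III with cytochrome c 4 higher (8), assembly factors 1 higher and 17 lower (11 each), complex III factors 2 called (5), complex II and V factors 1 each (2 each) and mitochondrially encoded subunits 3 (6). With the length and GC trend removed by longest transcripts, 6 subunits were lower, and 2 of complex II and 5 of complex III with cytochrome c were higher. In that setting 6 assembly factors were higher, and 3 complex III factors, 1 complex II factor and 1 complex IV partner (3 without) were called. Of the mitochondrially encoded subunits 2 were called there, 1 higher and 1 lower. With median lengths, 7 subunits were lower, 7 of complex IV were higher (11 without), 4 assembly factors were higher, and 3, 1 and 1 factors of complexes III, II and V were called. With the 100 most abundant genes kept out of library sizes, 4 subunits were lower, 5 assembly factors were higher, and 3, 1 and 1 factors of complexes III, II and V were called. The median of all genes moved by -0.36 there.

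Leaving out 1 library gave 6 to 12 assembly factors lower (6 without curcumin replicate 2, 7 without untreated replicate 2), and 1 to 2 complex II, 7 to 15 complex IV and 1 to 3 complex V factors called (2, 13 and 2 with every library). The 7 were found without curcumin replicate 2. A single complex II factor was called without untreated replicate 1 or 3, and a single complex V factor without curcumin replicate 1 or 2 or untreated replicate 1 or 3.

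By library size alone the sign turned for SDHD (-0.70), UQCR10 (-0.69), ATP5F1A (-0.22), ATP5MC1 (-0.56) and ATP5MC3 (-0.32). With the length trend removed by longest transcripts it turned for SDHC (0.78), SDHD (-0.44), UQCR10 (-0.98), COX6B1 (-0.0047), COX8A (-0.49), ATP5MC1 (-1.24), ATP5MF (-0.074) and ATP5PD (-0.060), and by median lengths for SDHD (-0.48), UQCR10 (-0.82), COX8A (-0.29), ATP5IF1 (-0.037), ATP5MC1 (-1.14), ATP5MC3 (-0.11) and ATP5MF (-0.82). Without the most abundant genes it turned for SDHD (-0.265), UQCR10 (-0.25) and ATP5MC1 (-0.12). Leaving out 1 library in turn, SDHD ranged from -0.034 to 0.234 and UQCR10 from -0.027 to 0.235, both below 0 without curcumin replicate 1 or untreated replicate 3. The cause of these turns was not tested.

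The labels do not say whether the replicate numbers pair the samples, and correlations this weak cannot decide it. Deviations of same-numbered samples correlated at 0.040, 0.023 and 0.11. Each curcumin sample correlated best with the untreated sample of its own number. Untreated replicate 2 correlated better with curcumin replicate 1 (0.039) than with its own number. A replicate block gave 3683 genes higher and 4011 lower and ended no call of a subunit, while ATP5MC3 (0.498) and ATP5MF-PTCD1 (-1.33) became called.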
